A study of Mus musculus with 60 samples.

Results

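Of the 117135 transcripts quantified in each library, 7 are described here. They are transcripts of the HoxC cluster of the mouse, 1 for each of Hoxc5, Hoxc6, Hoxc8, Hoxc9, Hoxc10, Hoxc11 and Hoxc13, taken by their Ensembl transcript identifiers. They were chosen by membership in a gene cluster, with the levels, somite trends and genotype differences of these data already in view and with no threshold on a value. Those values are therefore given as a description. All 7 of 7 passed the filter on low counts, as did 45394 of the 117135 transcripts.

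Hox genes encode homeodomain transcription factors that tell cells where they lie along the body axis. In each cluster the genes at the side of Hoxc5 are switched on earlier and further forward in the embryo than those at the side of Hoxc13, so that the order along the chromosome parallels the order in time and along the axis. Before and outside their domains the clusters are held silent by Polycomb repressive complex 2 (PRC2), which methylates histone H3. JARID2 is an accessory subunit of PRC2, and PRC2 can methylate JARID2 at a lysine whose methylated form binds the subunit EED and stimulates the enzyme.

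RNA of the tailbud, the tissue at the posterior tip of the embryo that adds new tissue to the growing axis, was sequenced from 27 single mouse embryos. The 16 wild-type embryos are titled WT and the 11 mutants MUT, and the design text names the mutation as JARID2 K116R; PALI1 K1241R, which it lists beside that change in the stem cells of the series, is not named for the embryos. Each of the stages of 12, 13, 14 and 16 somites (the segments of the trunk, whose number stages an embryo) held 4 wild-type embryos, while 2 mutants had 12 somites, 2 had 13, 2 had 14 and 5 had 16. The strain, sex and litter of the embryos, and whether the mutants carried 1 or both mutant alleles, are not given in the sources used here, and the chromatin libraries of stem cells in the series were not analysed here.

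No deposited file links these transcripts to genes, and lookup tables of gene symbols matched 0 of the identifiers. The symbols used below are those of the list from which the members came, so they could not be checked against an annotation of these transcripts. In RefSeq's annotation of the assembly GRCm38.p6 the 7 genes lie on chromosome 15 within 96.3 kilobases, in the order of their numbers. Hoxc13 lies at 102921131 to 102928814, Hoxc11 at 102954526 to 102956701, Hoxc10 at 102966796 to 102971898 and Hoxc9 at 102977032 to 102984444. Hoxc8 follows at 102990539 to 102994275, Hoxc6 at 102998226 to 103011882 and Hoxc5 at 103014008 to 103017429. The length of each listed transcript is no greater than the span of its gene in 7 of 7. What is said of order in the cluster rests on these symbols. Other transcripts of the same genes, those of Hoxc4 and Hoxc12, of Jarid2 and of markers of the tailbud or of other tissues were not identified, so the labelled tissue was not checked against its markers.

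Library totals ran from 20908470 to 27090684 estimated counts. In log2 CPM, where CPM is a count relative to the size of its library, the mean Pearson r of an embryo to the others of its group, across transcripts, was 0.836 for mutant embryo 1 at 16 somites and 0.864 for wild-type embryo 4 at 14 somites, and 0.874 to 0.898 for the rest. These 2 libraries are called set apart below, and results that change without them are given both ways. In the tailbud as a whole, fewer cells with a transcript and less of it per cell cannot be told apart.

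Levels were first compared between the members, which requires values per length, here TPM (abundance scaled by length and library). The middle of the cluster was the most abundant and the Hoxc13 end the least. Hoxc10 (ENSMUST00000001699.7, 1909 bases), known for its part in the lumbar region and the hindlimb, had the highest mean, 121 ± 42.3 TPM (SD, n = 27), and ranged from 38.1 to 202 TPM. Hoxc9 (ENSMUST00000001706.6, 2374 bases), which sets thoracic identity, followed with 71.5 ± 11.7 TPM (SD, n = 27).

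Hoxc8 (ENSMUST00000001703.7, 1868 bases), which patterns the thorax and the motor neurons that supply the forelimb, had a mean of 27.1 ± 9.84 TPM (SD, n = 27). Hoxc6 (ENSMUST00000001711.5, 1581 bases), a gene of the border between neck and thorax, had 26.0 ± 4.27 TPM (SD, n = 27). Pooled over stages these neighbours did not differ beyond their spread, and Hoxc6 was above Hoxc8 in 15 of 27 embryos. Their order differed between stages: Hoxc6 was the higher in 0 of 4 wild-type embryos and 0 of 2 mutants of 12 somites, and in 4 of 4 and 5 of 5 of 16 somites.

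The remaining members were far lower. Hoxc5 (ENSMUST00000001709.2, 2923 bases), which acts in the neck region, had 3.34 ± 0.602 TPM (SD, n = 27). Hoxc11 (ENSMUST00000001701.3, 2021 bases), a gene of the sacral region and the hindlimb, had 2.12 ± 0.760 TPM (SD, n = 27) and was below Hoxc5 in 26 of 27 embryos. Hoxc13 (ENSMUST00000001700.6, 2461 bases), the last gene of the cluster, known for its part in the tail and in hair, had 0.306 ± 0.138 TPM (SD, n = 27). By mean TPM, Hoxc10 took rank 1160 and Hoxc13 rank 32413 among all transcripts.

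**Figure D1:**
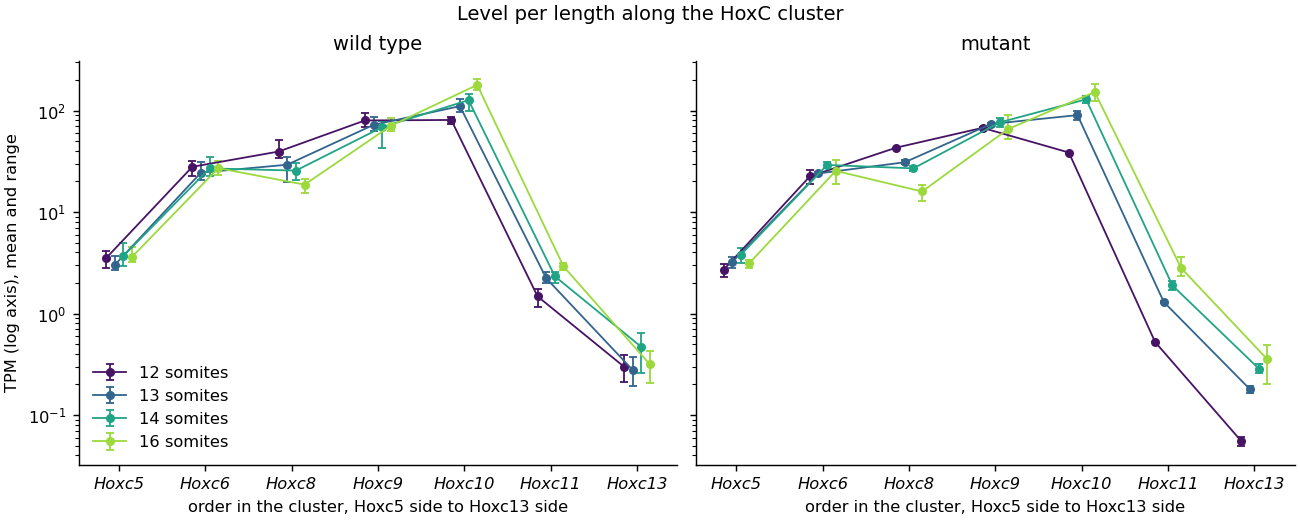
Level per length (TPM, log axis) of the 7 members in the order of the cluster, in wild-type embryos (left) and mutants (right); points are means of a stage and bars run from the lowest to the highest embryo. Hoxc10 was highest at 16 somites in both genotypes, and in the mutants of 12 somites it lay below Hoxc9 and Hoxc8.

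The depth behind these values differs in the same way. Estimated counts per library were 1765 to 9337 for Hoxc10 and 2366 to 5695 for Hoxc9, against 27 to 185 for Hoxc11 and 3 to 41 for Hoxc13. For Hoxc11 and Hoxc13 the counts were whole numbers, within 0.0005, in 27 of 27 libraries, so the quantification had not divided any of their reads between transcripts. The counts of Hoxc6, Hoxc8 and Hoxc9 were whole in 0 libraries, so some of their reads were shared with other transcripts and divided by estimation. Those of Hoxc10 were whole in 6 of 27 libraries and those of Hoxc5 in 8, and in the rest some reads were divided likewise.

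The order of levels was not the same in every embryo. In 14 embryos it ran from Hoxc10 through Hoxc9, Hoxc6, Hoxc8, Hoxc5 and Hoxc11 to Hoxc13, and in another 9 Hoxc8 was above Hoxc6. Hoxc9 was above Hoxc10 in 3 embryos, all of 12 somites: 1 of the 4 wild-type embryos and both mutants. In those 2 mutants Hoxc8 was above Hoxc10 as well, which was the case in 0 of the other embryos.

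The members were next followed with somite number, in each genotype on its own. The slope is the change in log2 level per added somite, from a fit over all transcripts, and a call means a Benjamini-Hochberg adjusted p under 0.05 in edgeR's quasi-likelihood test. In wild type 1 of 7 members was called, Hoxc10, which rose, against 0.0218% of the 36763 transcripts tested (0.0163% rising). In mutants 3 of 7 were called, Hoxc10 and Hoxc11 rising and Hoxc8 falling, against 0.0255% of 39151 (0.0179% rising and 0.00766% falling). DESeq2 called 3 of 7 in wild type (0.114% of all) and 4 of 7 in mutants (0.388%), and limma voom called 3 of 7 in each (0.049% and 0.0332%). An unadjusted p under 0.05 was found for 3 of 7 members in wild type, against 2.74% of all, and for 4 of 7 in mutants, against 6.07%. The median slope of the members was 0.046 in wild type and 0.074 in mutants, beside -0.0018 and 0.0076 over all transcripts tested, with members on either side of 0. Because the members were chosen with such results known, the shares describe them and are not independent evidence.

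**Figure D2:**
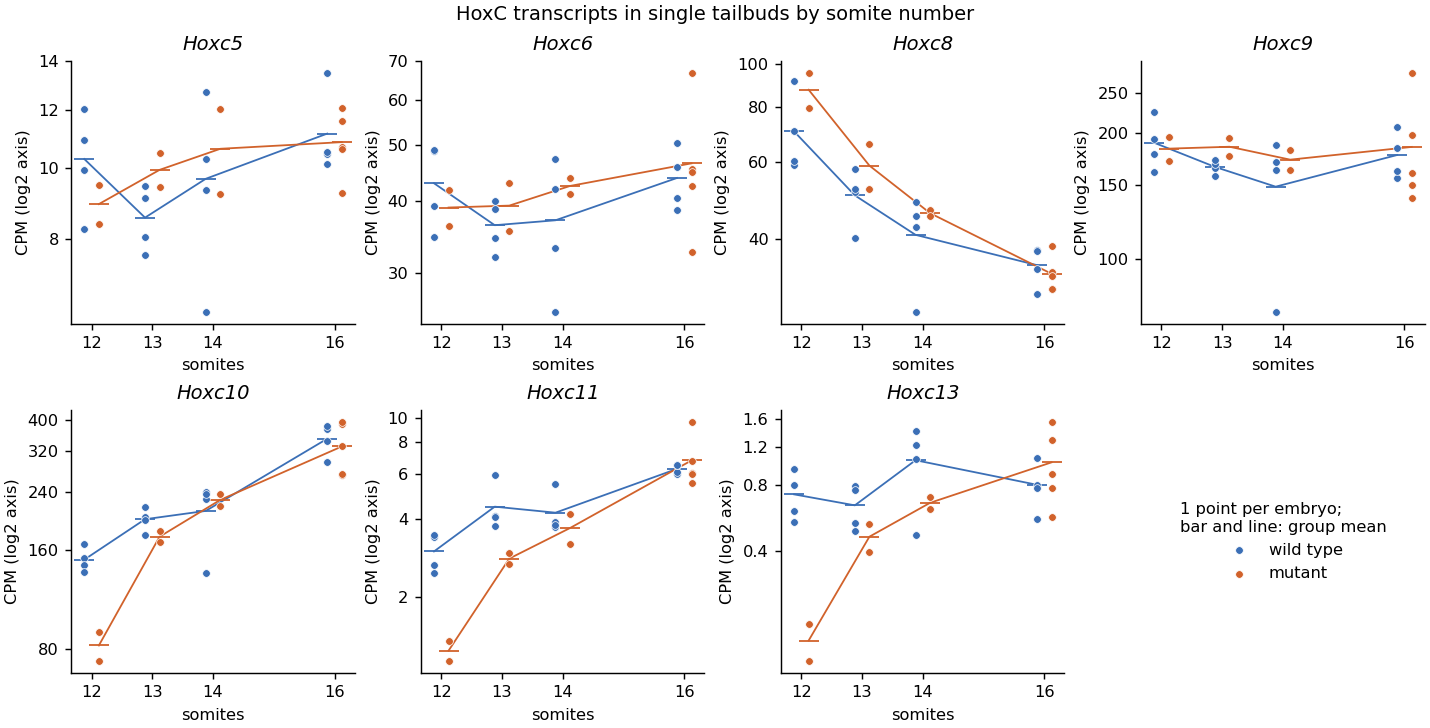
CPM (log2 axis, 1 panel per member with its own scale) against somite number; each point is 1 embryo, bars and lines join the group means. In both genotypes the mean of Hoxc8 was lower, and those of Hoxc10 and Hoxc11 higher, at 16 than at 12 somites, while Hoxc5, Hoxc6 and Hoxc9 overlapped between these stages.

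Hoxc10 was the steepest riser of the abundant members. In wild type its levels were 151, 144, 167 and 137 CPM at 12 somites, 202, 216, 198 and 178 at 13, 229, 240.2, 237 and 137 at 14, and 298, 375, 384 and 344 at 16. All 4 embryos of 16 somites were above all 4 of 12 somites, and the 137 CPM at 14 somites belongs to the wild-type library set apart. Here and below, the share of all transcripts whose stages lie apart in this way was not counted, so such separation is description only. The mean at 16 somites was 2.34 times that at 12, and the slope was 0.29 (SE 0.035, adjusted p 0.00281). It was called in 16 of 16 fits that each left out 1 embryo, but not without the embryos of 16 somites (0.25, adjusted p 0.836) or without those of 12 somites (0.28, adjusted p 0.394).

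In mutants Hoxc10 started lower. Its levels were 73.4 and 90.1 CPM at 12 somites, 182 and 169 at 13, 238 and 217 at 14, and 388, 271, 272, 332 and 393 at 16. The stages of 12 and 16 somites did not overlap, and the mean at 16 somites was 4.05 times that at 12. The slope was 0.43 (SE 0.059, adjusted p 0.0496). That call is at the edge of the threshold: leaving out any 1 of the 11 mutants ended it, with adjusted p of 0.0590 to 0.225 and slopes of 0.37 to 0.45. Of 11 other alternatives 5 called Hoxc10, among them DESeq2 (adjusted p 5.19e-10) and limma voom (0.0308).

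Hoxc11 had positive slopes too, at a much lower level. Wild-type embryos had 3.41, 2.65, 2.48 and 3.47 CPM at 12 somites, 4.13, 5.96, 3.78 and 4.09 at 13, 3.75, 5.51, 3.92 and 3.82 at 14, and 6.01, 6.12, 6.54 and 6.54 at 16. The embryos of 16 somites all lay above every younger wild-type embryo. The mean at 16 was 2.10 times that at 12, with a slope of 0.23 (SE 0.050) that missed the threshold (adjusted p 0.415). DESeq2 and limma voom called it, with adjusted p of 0.00341 and 0.0267.

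In mutants Hoxc11 stood at 1.12 and 1.34 CPM at 12 somites, 2.68 and 2.95 at 13, 3.21 and 4.19 at 14, and 9.60, 6.75, 6.09, 6.03 and 5.54 at 16. No mutant of one stage overlapped with those of another. The mean at 16 somites was 5.53 times that at 12, and the slope was 0.55 (SE 0.074, adjusted p 0.0496). As for Hoxc10, leaving out any 1 mutant ended the call, with adjusted p of 0.0627 to 0.234, the first of these without the mutant library set apart, which holds the 9.60 CPM. Of 11 other alternatives 4 called it, DESeq2 (adjusted p 5.81e-10) and limma voom (0.0301) among them.

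Hoxc13 was near the limit of detection. Its counts were 20, 15, 12 and 24 in the wild-type embryos of 12 somites, 20, 12, 22 and 13 at 13, 41, 27, 35 and 15 at 14, and 20, 13, 26 and 17 at 16. No stage stood apart in wild type, where the slope was 0.07 (SE 0.102, adjusted p 1). In mutants the counts were 3 and 4 at 12 somites, 10 and 13 at 13, 20 and 17 at 14, and 30, 13, 18, 21 and 27 at 16.

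The mutants of 12 somites were thus below every other embryo for Hoxc13. In CPM the mutant mean at 16 somites, 1.02, was 6.58 times that at 12 somites, 0.155, and the slope was 0.54 (SE 0.142, p 0.00281 before and 0.584 after adjustment). DESeq2 called this slope (adjusted p 0.0448), and the other alternatives did not. With so few counts, counting error alone is wide: a count of 3 has an exact Poisson 95% interval of 0.619 to 8.77.

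Hoxc8 went the other way. Its levels in wild type were 59.0, 60.3, 70.4 and 91.5 CPM at 12 somites, 51.2, 40.1, 51.9 and 57.8 at 13, 48.4, 42.5, 45.1 and 27.3 at 14, and 37.7, 34.2, 37.5 and 29.9 at 16. All embryos of 12 somites were above every older wild-type embryo, and the mean at 12 was 2.02 times that at 16. The slope of -0.25 (SE 0.044) had an adjusted p of 0.118. It passed the threshold without the wild-type library set apart, which holds the 27.3 CPM (adjusted p 0.0219, in a fit that called 0.034% of all transcripts), and in DESeq2 (0.000744) and limma voom (0.0108).

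In mutants Hoxc8 stood at 79.4 and 95.5 CPM at 12 somites, 51.8 and 65.6 at 13, 46.5 and 45.0 at 14, and 30.8, 33.6, 32.9, 30.7 and 38.5 at 16. The stages did not overlap, and the mean at 12 somites was 2.63 times that at 16. Hoxc8 fell by 0.32 per somite on the log2 scale (SE 0.032, adjusted p 0.00766), and it was called in 11 of 11 fits that each left out 1 mutant. Without the mutants of 12 somites the slope was -0.26 (adjusted p 0.244).

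Hoxc5, Hoxc6 and Hoxc9 had no slope past the threshold in either genotype. Hoxc9 had stage means of 149 to 189.7 CPM in wild type and 173 to 186 CPM in mutants, with slopes of -0.02 (SE 0.049) and 0.01 (SE 0.050). Hoxc6 had slopes of 0.02 (SE 0.042) and 0.07 (SE 0.047), and Hoxc5 of 0.05 (SE 0.046) and 0.06 (SE 0.037). Along the cluster, slopes were therefore near 0 from Hoxc5 to Hoxc6, negative at Hoxc8, near 0 at Hoxc9 and positive from Hoxc10 on, apart from Hoxc13 in wild type.

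**Figure D3:**
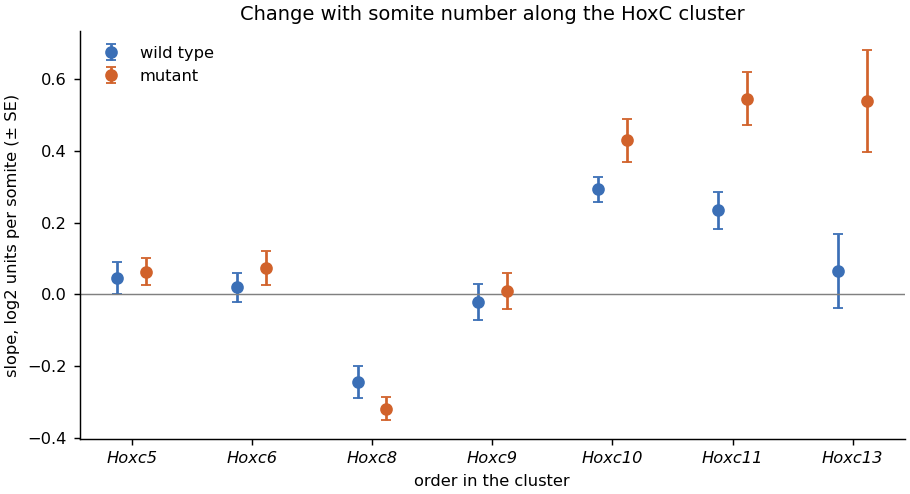
Slope per somite (log2 units, points, with the SE as bars) of the 7 members in the order of the cluster, fitted in 16 wild-type embryos and 11 mutants on their own. The slopes of Hoxc8 were -0.25 and -0.32 and those of Hoxc10 0.29 and 0.43, in wild type and mutants.

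Mutants were then compared with wild-type embryos. With stage as a factor, 0 of 7 members were called over all stages, where edgeR called 0.0154% of 45394 transcripts and DESeq2 and limma voom called none of the 7 either. Before adjustment 1 member had a p under 0.05, Hoxc11, which was lower in mutants, against 7.63% of all transcripts (3.93% in the lower direction). Its log2 fold change, mutant over wild type, was -0.39 (SE 0.158, p 0.0192, adjusted p 0.578). Without the 2 libraries set apart 3 members had an unadjusted p under 0.05, all lower in mutants, against 7.47% of all transcripts (3.88% in the lower direction). These were Hoxc10 (-0.28, p 0.00399), Hoxc11 (-0.48, p 0.00321) and Hoxc13 (-0.66, p 0.0254), with adjusted p of 0.372, 0.338 and 0.582. With all libraries the other 6 lay between -0.51 for Hoxc13 (SE 0.297) and 0.13 for Hoxc8 (SE 0.090). The members' median was 0.02 and that of all transcripts -0.01. The lower levels over all stages rested in large part on the stage of 12 somites. Without its embryos the changes were -0.049 for Hoxc10 (SE 0.101), -0.18 for Hoxc11 (SE 0.149) and -0.14 for Hoxc13 (SE 0.284). None of these 3 then had an unadjusted p under 0.05. Without the embryos of 16 somites they were -0.29, -0.69 and -1.01, in the same order.

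Within stages, mutants and wild-type embryos were furthest apart at 12 somites, and there in the last 3 of the 7 members along the cluster. Hoxc10 had 73.4 and 90.1 CPM in the 2 mutants against 137 to 167 in the 4 wild-type embryos, with means of 81.8 ± 11.8 (SD, n = 2) and 149.5 ± 12.6 (SD, n = 4). Hoxc11 had 1.12 and 1.34 CPM against 2.48 to 3.47, and Hoxc13 had 0.125 and 0.184 CPM against 0.541 to 0.946. For each of these both mutants were below all 4 wild-type embryos, as was the case for 6.09% of all transcripts at this stage. The other 4 members overlapped between the genotypes, and 6.77% of all transcripts had both mutants above all wild-type embryos.

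In edgeR's fit the log2 fold changes at 12 somites were larger in size toward Hoxc13. They were -0.87 for Hoxc10 (SE 0.193, p 0.000179), -1.28 for Hoxc11 (SE 0.271, p 0.000104) and -2.20 for Hoxc13 (SE 0.561, p 0.00076). None passed the threshold after adjustment over all transcripts, with adjusted p of 0.421, 0.337 and 0.605 in edgeR's test. No transcript did at this stage (0.0%), while 3 of 7 members and 3.83% of all transcripts had an unadjusted p under 0.05 (lower in mutants, 3 of 7 and 2.17%). Whether the 3 changes differ from each other was not tested.

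In summed counts of 12 somites, Hoxc13 had 7 in mutants and 71 in wild type, which for the library sizes is 4.78-fold lower with a 95% counting interval of 2.20 to 12.3. Hoxc11 had 56 and 293, which is 2.47-fold lower with an interval of 1.85 to 3.34. These intervals cover counting error and not the spread between embryos.

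The call at 12 somites depended on the tool. DESeq2 called Hoxc10 (adjusted p 0.00149) and Hoxc11 (0.00458), 2 of 7 members in a set of 242 transcripts called at this stage (0.533% of all). Limma on log2 TPM called the same 2, each with an adjusted p of 0.0256, among 9 transcripts (0.0198%). Without the 2 libraries set apart edgeR called Hoxc10 alone of the members (0.0319), among 5 transcripts (0.0113%). Across the 10 alternatives other than leaving out an embryo, the log2 fold change of Hoxc10 lay between -1.06 and -0.86 and that of Hoxc11 between -1.39 and -1.27. That of Hoxc13 moved more, between -2.24 and -1.35 in the 9 that held it. Its -1.35 came on log2 TPM, where Hoxc11 had -1.32, so the size of the step toward Hoxc13 depended on the scale.

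Toward the Hoxc5 side the differences at 12 somites were small. Hoxc8 had 79.4 and 95.5 CPM in mutants against 59.0 to 91.5 in wild type, a log2 fold change of 0.32 (SE 0.194, p 0.119). Those of Hoxc5, Hoxc6 and Hoxc9 were -0.20, -0.14 and -0.05, each smaller than its SE of 0.213, 0.229 and 0.264.

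At 13 somites 0 of 7 members were called, where 3 transcripts (0.00661%) were, and 1 of 7 had an unadjusted p under 0.05, against 3.39% of all transcripts (1.86% in the lower direction). That was Hoxc11, with 2.68 and 2.95 CPM in mutants and 3.78 to 5.96 in wild type, a log2 fold change of -0.67 (SE 0.259, p 0.0169, adjusted p 1). Both mutants were below all 4 wild-type embryos, as for 5.9% of all transcripts. Hoxc9, at 176 and 195 CPM against 158 to 172, had both mutants above all wild-type embryos, as for 6.66% of all transcripts, with a log2 fold change of 0.16 (SE 0.262). Hoxc10 and Hoxc13 overlapped, at -0.18 (SE 0.187) and -0.47 (SE 0.503).

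At 14 and 16 somites 0 of 7 members were called (0.00661% and 0.0% of all transcripts), 0 had an unadjusted p under 0.05 (3.1% and 6.13%), and all 7 overlapped between the genotypes. Every mutant was below every wild-type embryo for 4.01% of all transcripts at 14 somites and above for 5.1%, and for 1.27% and 0.881% at 16. At 14 somites the fold changes ran from -0.64 for Hoxc13 (SE 0.501) to 0.22 for Hoxc9 (SE 0.261). At 16 somites, with 5 mutants, they ran from -0.08 for Hoxc10 (SE 0.143) to 0.34 for Hoxc13 (SE 0.381). The means of Hoxc11 there were 6.80 ± 1.62 CPM (SD, n = 5) in mutants and 6.30 ± 0.280 CPM (SD, n = 4) in wild type.

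**Figure D4:**
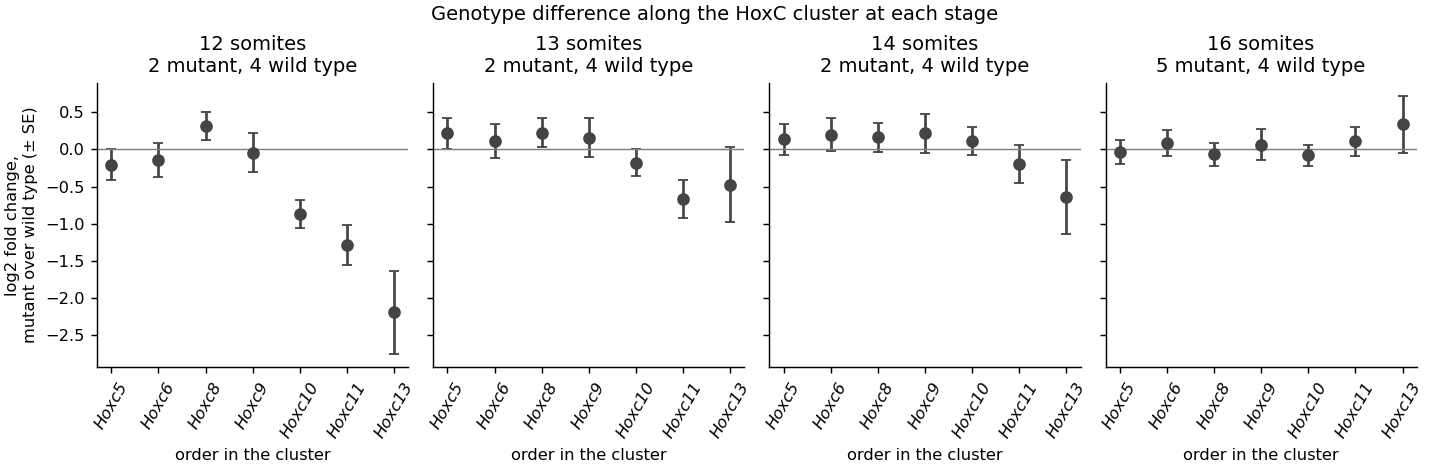
Log2 fold change of mutant over wild type (points, with the SE as bars) for the 7 members in the order of the cluster, 1 panel per stage with its number of embryos. At 12 somites the points run from 0.32 at Hoxc8 down to -2.20 at Hoxc13, and at 16 somites all lie between -0.08 and 0.34.

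Whether the genotype difference varied with stage was tested directly. For the 3 interaction terms together 0 of 7 members were called, where edgeR called 0.00661% of all transcripts. Before adjustment 3 members had a p under 0.05, against 2.95% of all transcripts: Hoxc10 (p 0.00678), Hoxc11 (p 0.00257) and Hoxc13 (p 0.0102), each with an adjusted p of 1. The other 4 had p of 0.441 to 0.899.

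The slopes were compared in the same way, and 0 of 7 members were called, as was 0.0% of all transcripts. Before adjustment 2 members had a p under 0.05, Hoxc11 and Hoxc13, both with the greater slope in mutants, against 4.58% of all transcripts (2.73% in that direction). Per somite the slope of Hoxc11 was 0.30 greater in mutants (SE 0.083, p 0.0012, adjusted p 0.68) and that of Hoxc13 0.47 greater (SE 0.161, p 0.00758, adjusted p 0.766). For Hoxc10 the difference was 0.13 (SE 0.067, p 0.0618) and for Hoxc8 -0.08 (SE 0.059). Without the embryos of 12 somites the differences were 0.25 for Hoxc11 (p 0.0252), 0.30 for Hoxc13 (p 0.180) and 0.01 for Hoxc10 (p 0.884), so that of Hoxc10 rested on the stage of 12 somites.

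Opposite slopes of Hoxc8 and Hoxc10 made their ratio within an embryo a description of stage that needs no scaling between libraries. It was chosen after the values were seen and is given with no test. In wild type Hoxc10 over Hoxc8, in TPM, was 2.12 ± 0.456 at 12 somites, 3.91 ± 0.935 at 13, 4.96 ± 0.381 at 14 and 9.75 ± 1.53 at 16 (SD, n = 4 each). In mutants it was 0.886 and 0.906 at 12 somites, 2.48 and 3.39 at 13, 4.64 and 4.92 at 14, and 9.66 ± 1.86 at 16 (SD, n = 5).

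The 2 mutants of 12 somites were the only embryos of the 27 with a ratio under 1, and the lowest wild-type embryo of that stage had 1.44. How often the ratio of 2 other transcripts sets these mutants apart was not counted. At 13 somites the ranges overlapped (2.95 to 5.20 in wild type), and at 14 and 16 somites the means of the genotypes lay within 1 SD of each other. The ratio of Hoxc11 to Hoxc10, both with positive slopes, was 0.0164 to 0.0204 in the means of the wild-type stages and 0.0136 to 0.0189 in those of the mutants.

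**Figure D5:**
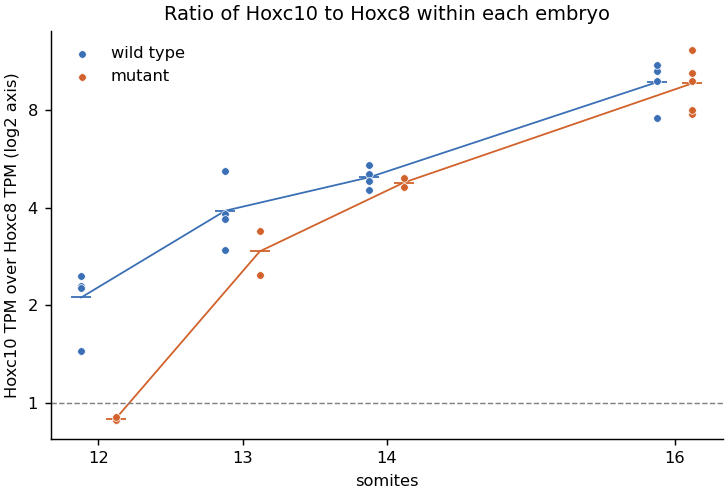
Ratio of Hoxc10 to Hoxc8 (TPM over TPM, log2 axis) in each embryo against somite number, with bars and lines at the group means; the dashed line marks equal levels. The 2 mutants of 12 somites lie under the line at 0.886 and 0.906, and at 16 somites both genotypes lie between 7.57 and 12.3.

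Hoxc10 took a growing share of the summed TPM of the 7 members. It was 34.9% ± 4.11 at 12 somites and 59.3% ± 1.86 at 16 in wild type (SD, n = 4 each), and 22.1% ± 1.25 (SD, n = 2) and 57.3% ± 3.08 (SD, n = 5) in mutants. Hoxc9 took 34.2% ± 1.72 and 23.4% ± 0.828 at these stages in wild type, although its own level did not change past the threshold.

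Embryos of one group also differed from each other in ways the members shared. After the mean of each group was removed from log2 CPM, 10 of the 21 pairs of members had an adjusted p under 0.05 across the 27 embryos (permutation of embryos within groups, two-sided, Benjamini-Hochberg over the 21 pairs), with a median r of 0.571. The strongest pair was Hoxc9 with Hoxc10 (Pearson r 0.844, adjusted permutation p 0.00441; Spearman rho 0.770, adjusted permutation p 0.00575), with r of 0.733 without the 2 embryos farthest from the median of Hoxc9. Hoxc6 with Hoxc9 followed, with r of 0.821 (adjusted permutation p 0.00084), rho of 0.697 (0.00262) and 0.713 without the 2 farthest. Hoxc11 had r of -0.109 to 0.435 with the others and 0 of 6 pairs past the threshold. Hoxc8 passed it only with Hoxc13 (r 0.559, adjusted permutation p 0.0428). A pair that missed the threshold is not thereby shown to vary independently.

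These relations rested in large part on the libraries set apart. Without both, 1 of 21 pairs had an adjusted p under 0.05 and the median r was 0.316. Without wild-type embryo 4 at 14 somites alone there were 5 pairs, and in that embryo 6 of the 7 members were the lowest of the group, Hoxc11 being the exception. Pairs share library and scaling, so a library-wide shift moves all members together, and its part in these values was not tested.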

How the data were processed

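The authors deposited 1 table per library, with an estimated count of reads, a TPM value and an effective length for each transcript. Per the submitters' processing notes, Salmon 1.5.2 and Trim Galore 0.5.0 were used and the builds mm10 and hg38 are listed with no role; the transcript annotation, strandedness and bias options are not given in the sources used here. In the deposited estimated counts, reads that several transcripts share are split between them by a model. The deposited TPM values are scaled by effective length and library, so levels were compared between members in TPM only.

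After rounding, the counts were fitted with edgeR 4.0.16 in R 4.3.3, by glmQLFit and glmQLFTest after filterByExpr and TMM scaling. The filter used the 8 groups or, for slopes within a genotype, the stages of that genotype. Benjamini-Hochberg adjustment ran over all transcripts tested, with calls at an adjusted p under 0.05. A standard error is the absolute log2 change divided by the root of its F statistic. One model of the 8 groups gave the stage effects and the interaction, and slopes were fitted within each genotype. CPM values are TMM-scaled and printed on the linear scale with no prior count. Log2 CPM, used for correlations, has a prior count of 2. The fits were also run on simulated counts with known changes, many of which were not called. A missing call is therefore no evidence that a level is unchanged. Correlations used 100000 permutations. No pair of embryos of a group differed as little as repeats of one library would (lowest chi-square per degree of freedom 11.8 in 37 pairs).

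Alternatives were DESeq2 1.42.0, limma 3.58.1 (voom with quality weights, and log2 of TPM plus 0.1), other filters and scalings, an offset from the effective lengths, a replicate block, stage as a number or left out, and leaving out embryos, stages or libraries. Plots were made in matplotlib 3.10.9 (Python 3.11.15). The members, the lists and the tests were chosen with earlier results of these data known. All 7 members are named, and beside them the 5 transcripts most like them. Lists of other Hox genes and tissue markers were not used, because no annotation pairs these transcripts with symbols. Intervals for counts are exact Poisson intervals of 95% and cover counting error only. P-values of the stage effects and of the interaction set a change against the spread between the embryos of a group. For slopes, their difference and the genotype effect over all stages, that spread also holds departures of group means from the model. Those of the correlations come from permutation.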

Additional observations from a re-analysis of the deposited data

Results flagged for a closer look

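In the 5 groups of 4 or 5 embryos, an embryo far from the rest of its group was looked for in the CPM of each member. Chance alone sets apart about 1 in 20 of such comparisons, which is 1.75 of the 35 made, and 4 were found. Wild-type embryo 4 at 14 somites had 137 CPM of Hoxc10 against 229 to 240.2 in the other 3; this is one of the libraries set apart, and 6 of the 7 members were lowest in it. Wild-type embryo 3 at 16 somites had 13.5 CPM of Hoxc5 against 10.1 to 10.5. Wild-type embryo 2 at 13 somites had 5.96 CPM of Hoxc11 against 3.78 to 4.13, and wild-type embryo 2 at 14 somites had 5.51 CPM of Hoxc11 against 3.75 to 3.92. The other members were within the spread of their groups in these 3 embryos by the same measure.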

How the results depend on the processing

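Counts below are of the 7 members called (adjusted p under 0.05). For the interaction, the difference of slopes and the genotype effect over all stages or at 13, 14 or 16 somites they were 0 in edgeR and stayed 0 under every alternative run. At 12 somites the count of 0 became 2 with DESeq2, 2 with limma on log2 TPM and 1 without the 2 libraries set apart. The count of 1 rising or falling in wild type became 3 with DESeq2, 3 with limma voom, 2 without the libraries set apart, 0 without 16 somites and 0 without 12 somites, and it was 1 to 2 when 1 embryo was left out, 2 without wild-type embryo 4 at 14 somites. The count of 3 in mutants became 4 with DESeq2, 2 without a filter, 1 with the effective lengths as an offset, 1 with log2 TPM, 1 without the libraries set apart, 0 without 16 somites and 0 without 12 somites; it was 1 whichever mutant was left out. Where stages were left out fewer embryos carried the slope. Of the correlations, 10 pairs became 1 without the libraries set apart and 5 to 11 when 1 embryo was left out; the 5 came without wild-type embryo 2 or embryo 4 at 14 somites or mutant embryo 3 at 16. Leaving out the embryos of 12 somites was chosen after the data were seen.

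The labels do not say whether equal embryo numbers pair embryos, and they give no shared litter. In 10 same-numbered pairs of a mutant and a wild-type embryo of a stage, deviations from the group means had r of -0.0681 to 0.027. Where a stage held 2 mutants their deviations are exact opposites, so those pairs are not independent. Only 1 of the 10 mutants correlated best with the wild-type embryo of its own number. A fit with the number as a replicate block called 0 members in mutants in place of 3, and changed no other count of calls. That block groups equal numbers across stages, and whether such embryos are alike was not tested.

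Sign changes concerned small changes that no fit called. With limma voom, Hoxc5 became -0.0079 over all stages and -0.011 for the difference of slopes, where Hoxc6 became -0.0044 and Hoxc9 -0.037. At 16 somites Hoxc6 became -0.048, Hoxc9 -0.11 and Hoxc11 -0.0055, and the mutant slope of Hoxc9 became -0.042. With log2 TPM, Hoxc5, Hoxc6, Hoxc8 and Hoxc9 became -0.11, -0.078, -0.0047 and -0.043 over all stages, and Hoxc6 -0.0084 at 13 somites. At 16 somites Hoxc6, Hoxc9 and Hoxc11 became -0.10, -0.12 and -0.060 on that scale, the mutant slope of Hoxc9 -0.035 and the difference of slopes of Hoxc5 -0.00090. On that scale the median of all transcripts moved by -0.113 over all stages, by -0.1409 at 12 somites and by -0.1499 at 16.

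Without the libraries set apart, Hoxc5, Hoxc6 and Hoxc9 became -0.024, -0.019 and -0.018 over all stages. At 14 somites Hoxc5, Hoxc9 and Hoxc10 became -0.030, -0.019 and -0.060. At 16 somites Hoxc6, Hoxc9 and Hoxc11 became -0.066, -0.11 and -0.029, and for Hoxc9 the mutant slope became -0.050 and the difference of slopes -0.034. Without a term for stage Hoxc10 became 0.072 over all stages. Without 16 somites the wild-type slopes of Hoxc5 and Hoxc6 became -0.039 and -0.10, and the mutant slope of Hoxc9 -0.043. Without 12 somites the wild-type slope of Hoxc9 became 0.043, and the differences of slopes of Hoxc5, Hoxc6 and Hoxc9 became -0.088, -0.018 and -0.033. The cause of these sign changes was not tested.

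When 1 embryo was left out, some signs changed as well. Over all stages Hoxc5 ran from -0.012 to 0.062. At 12 somites Hoxc9 ran from -0.15 to 0.055, and at 13 somites Hoxc6 from -0.025 to 0.23. At 14 somites Hoxc5 ran from -0.074 to 0.30, Hoxc9 from -0.012 to 0.34 and Hoxc10 from -0.054 to 0.18. At 16 somites Hoxc5 ran from -0.082 to 0.073, Hoxc6 from -0.076 to 0.19, Hoxc9 from -0.12 to 0.15 and Hoxc11 from -0.039 to 0.18. Wild-type slopes ran from -0.0063 to 0.044 for Hoxc6 and from -0.050 to 0.0066 for Hoxc9, the mutant slope of Hoxc9 from -0.050 to 0.033, and differences of slopes from -0.013 to 0.042 for Hoxc5 and from -0.032 to 0.052 for Hoxc9. Slopes of Hoxc8, Hoxc10, Hoxc11 and Hoxc13 in mutants, and of Hoxc8, Hoxc10 and Hoxc11 in wild type, kept their sign in every alternative run. Over all transcripts DESeq2 called 189 in place of 7 for the genotype effect over all stages, and 42 and 152 slopes in wild type and mutants in place of 8 and 10. Depth limits Hoxc13 most, with 3 to 41 counts per library, and groups of 2 mutants limit every comparison at 12, 13 and 14 somites.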

Other observations

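The transcripts most like the members across embryos were sought, from a mean level of 1 CPM upward, by the mean Pearson r to the 7 members of log2 CPM over the 27 embryos, with group means removed. They were ENSMUST00000038188.13 (mean r 0.739), ENSMUST00000135523.4 (0.733), ENSMUST00000155932.1 (0.714), ENSMUST00000117987.1 (0.714) and ENSMUST00000228984.1 (0.714), whose genes are not named in the tables. Each was closest to Hoxc9, with r of 0.921 to 0.962. In 5 of 5 the lowest and second lowest r were those with Hoxc8 and Hoxc11, in either order. These are descriptions over embryos that share libraries and scaling, and they carry no p. The search was not repeated without the libraries set apart, on which the correlations between members largely rested.

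The ratio of Hoxc8 to Hoxc6, neighbours of like mean level, crossed 1 within the stages studied. In TPM it was 1.41 ± 0.170 at 12 somites, 1.21 ± 0.279 at 13, 0.969 ± 0.205 at 14 and 0.690 ± 0.0788 at 16 in wild type (SD, n = 4 each). In mutants it was 1.65 and 2.29 at 12 somites, 1.26 and 1.32 at 13, 0.912 and 0.942 at 14, and 0.653 ± 0.177 at 16 (SD, n = 5). At 12 somites both mutants were above all wild-type embryos, the lower of them at 1.65 against a highest wild-type ratio of 1.61. The ratio of Hoxc10 to Hoxc9 was 0.553 and 0.590 in the mutants of 12 somites against 0.785 to 1.14 in wild type, and 2.36 ± 0.350 (SD, n = 5) against 2.54 ± 0.156 (SD, n = 4) at 16 somites. How often ratios of other transcripts separate the genotypes of a stage was not counted.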
